A study of Mus musculus with 6 samples.

Results

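The CDK inhibitors and G1 kinases are 10 genes: the CIP/KIP inhibitors Cdkn1a, Cdkn1b and Cdkn1c, the INK4 inhibitors Cdkn2a, Cdkn2b, Cdkn2c and Cdkn2d, and the kinases Cdk2, Cdk4 and Cdk6. They were listed by name, with earlier results of these data known, and 11 of the 34760 probe sets are annotated to them. Shares of these genes set beside those of all genes are therefore descriptive only. Of the 10 genes, 9 had a probe set annotated to them alone and were among the 19937 genes tested. Cdkn1a shares its probe set with the transcript 4930567H12Rik and was left out of the counts.

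A cell passes through G1 when D-type cyclins activate CDK4 and CDK6, and E-type cyclins then activate CDK2. These kinases phosphorylate the retinoblastoma family, which frees E2F factors to switch on the genes of DNA replication. INK4 proteins bind CDK4 and CDK6 and keep them from their cyclins, while CIP/KIP proteins bind complexes of CDKs with cyclins. In blood-forming tissue p27 and p57, made from Cdkn1b and Cdkn1c, and p18, made from Cdkn2c, are known for holding stem cells out of cycle, and CDK6 is the G1 kinase known for the exit of human stem cells from quiescence.

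RNA came from cultures started from mouse hematopoietic progenitors lacking mature lineage markers (Lin-). The cells were of C57BL6 strain and carried Rosa26rtTA, a doxycycline-dependent activator expressed from a ubiquitous locus. The 3 arrays labelled EVI1 were of cells given a lentivirus with a doxycycline-responsive promoter, EVI1 (a zinc finger transcription factor of the Mecom locus that is overexpressed in some leukemias), an internal ribosome entry site and EGFP. The 3 arrays labelled EGFP were of cells given the same kind of vector with EGFP alone. Cells of both groups were grown without serum in interleukin 11, Flt3 ligand and stem cell factor at 50 ng/ml each and interleukin 3 at 20 ng/ml, received doxycycline at 1 µg/ml and were sorted for EGFP, so both groups carry the activator, a vector and the drug. The vector was given 24 h after isolation, and doxycycline 24 h after the vector. The drug was on for 20 h in the series' design text and 24 h in the sample labels. No source used here gives the age or number of the mice or any pooling, and the p-values measure the spread between these arrays, which may be technical.

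Values are log2 intensities (RMA), so a difference of 1 is a change of 2-fold. Levels of different genes are not set against each other, since probes differ in brightness. The level of dim genes was taken as the 95th percentile over 1027 olfactory receptors, 6.99 in EVI1 and 6.95 in EGFP arrays. Mecom, the gene to be overexpressed, did not read higher with the EVI1 construct. The brighter of its probe sets had 6.29, 6.18 and 6.49 in EVI1 arrays, against 6.39, 7.53 and 6.86 in EGFP arrays. Both group means, 6.32 ± 0.16 in EVI1 and 6.92 ± 0.57 in EGFP arrays (SD, n = 3 each), were under the level of dim genes, so no size is given for their difference. The other Mecom probe set averaged 6.35 in EVI1 and 6.58 in EGFP arrays, also under that level, with every EVI1 value below every EGFP value. It is not known here whether these probes can read the vector's EVI1, so every direction is that of the labels. Of the 10 progenitor markers none was under the level of dim genes in both groups. The same held for the 10 neutrophil, 7 megakaryocyte and 7 erythroid markers. Under that level in both groups were 2 of 10 macrophage, 2 of 10 mast cell and basophil, and 5 of 9 lymphoid markers. EGFP replicate 2 had the lowest mean correlation with its own group, 0.979 across genes.

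Among the 9 genes tested, Cdkn1b and Cdkn1c rose and Cdk4 and Cdk6 fell in the arrays labelled EVI1, while the 4 INK4 genes and Cdk2 did not pass the test. Rises and falls were called at a limma adjusted p under 0.05 over all 19937 genes. That is 4 of 9 genes, where 18.2% of all genes were called; 2 of 9 rose, where 9.06% of all genes rose, and 2 of 9 fell, where 9.18% fell. The EVI1 and EGFP values did not overlap for 5 of the 9 genes (32.6% of all genes), the 4 called ones and Cdkn2c; EVI1 was higher in 3 of them (16.1% of all genes) and lower in 2 (16.5%). The median log2 difference of the 9 was 0.16 and that of all genes 0.0060. With the replicate number as a block the same 4 of 9 genes were called, where 21.9% of all genes were called (10.9% rose and 11.0% fell). In sorted bulk RNA, more or fewer cells of a type and more or less RNA per cell cannot be told apart.

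**Figure D1:**
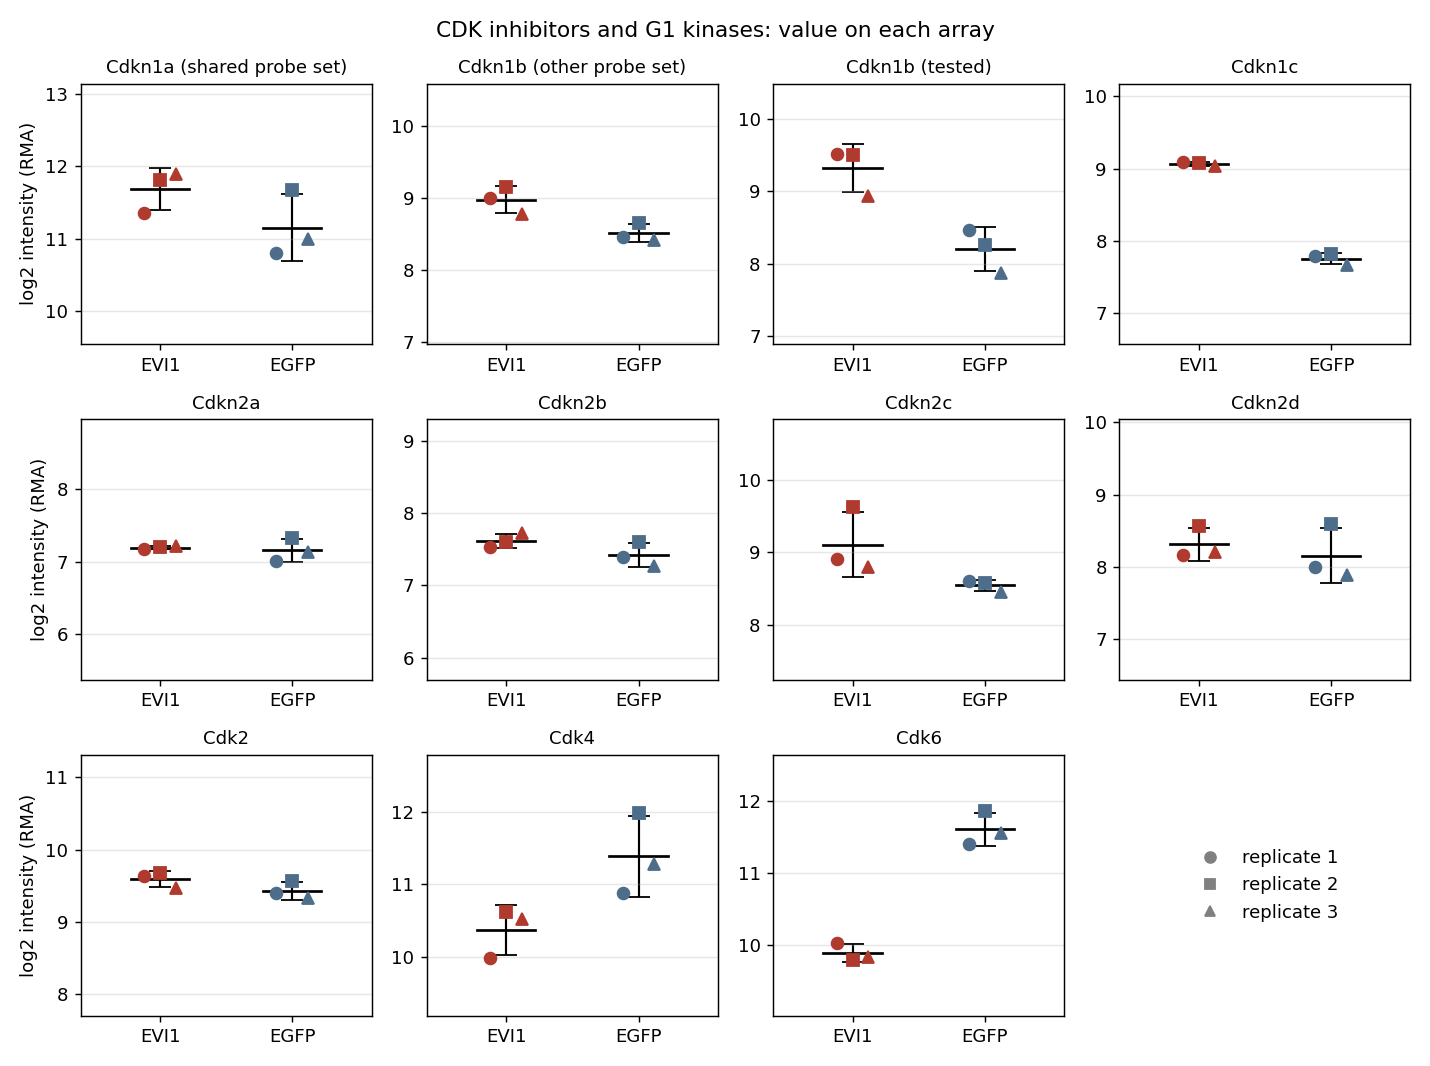
Log2 intensity (y axis, a window of equal height in each panel) of each probe set on the 3 EVI1 and the 3 EGFP arrays; points are arrays, with the marker giving the replicate number, the long bar is the mean and the whisker the SD. EVI1 and EGFP points are fully apart for Cdkn1c (9.03 to 9.09 against 7.66 to 7.81) and Cdk6 (9.80 to 10.04 against 11.40 to 11.86), and overlap for Cdkn2a, Cdkn2b, Cdkn2d and Cdk2.

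Cdkn1c encodes p57, the CIP/KIP inhibitor that is imprinted and expressed from the maternal allele. Its probe set (10569429) read 9.09, 9.08 and 9.03 in EVI1 arrays, against 7.79, 7.81 and 7.66 in EGFP arrays. The replicates lay close together in both groups, and the lowest EVI1 value was more than 1 log2 unit above the highest EGFP value. Cdkn1c rose 2.48-fold, with a log2 difference of 1.31 ± 0.10 (SE, n = 3 arrays each; limma adjusted p = 0.000161), which placed it at rank 105 of 19937 genes by p. With any 1 array left out the difference stayed between 1.26 and 1.34.

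The 5 genes outside this set whose values over the 6 arrays were most like those of Cdkn1c, among 2038 genes with an SD of at least 0.5, were Marcks (Pearson r = 0.999), S100a4 (0.998), Pde7b (0.997), Pgap1 (0.997) and Gpr4 (0.997). All 6 arrays enter these correlations and the difference between the groups makes up most of each, so they are a description of shared levels only. The log2 differences of these genes were 1.89 for Marcks, 1.16 for S100a4, 2.51 for Pde7b, 3.46 for Pgap1 and 1.23 for Gpr4.

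Cdkn1b encodes p27, which binds CDK2 with cyclin E or cyclin A. The probe set used in the test (10542317) had the higher mean over all arrays. By group mean it was the brighter one in EVI1 arrays but the dimmer one in EGFP arrays. It read 9.51, 9.51 and 8.93 in EVI1 arrays, against 8.47, 8.26 and 7.87 in EGFP arrays. In both groups replicate 3 was lowest, and the groups did not overlap. The log2 difference was 1.12 ± 0.21 (SE, n = 3 each; limma adjusted p = 0.00689), a rise of 2.17-fold. Differences between arrays of the same number were 1.04, 1.25 and 1.07.

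The other Cdkn1b probe set (10542310) showed a smaller difference, with 8.97 ± 0.19 in EVI1 arrays (8.77 to 9.14) and 8.51 ± 0.13 in EGFP arrays (8.41 to 8.66; SD, n = 3 each). Its groups did not overlap either, and its log2 difference was 0.46 ± 0.13 (SE; limma adjusted p = 0.0456 when every probe set was tested on its own). The mean of both probe sets differed by 0.79 (limma adjusted p = 0.00978). The direction was the same on both, but the size of the difference depends on the probe set.

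Cdkn1a encodes p21, the CIP/KIP inhibitor best known as a target of p53. The probe set it shares with 4930567H12Rik (10443463) read 11.35, 11.81 and 11.89 in EVI1 arrays, against 10.79, 11.67 and 10.99 in EGFP arrays. The groups overlapped through EGFP replicate 2. The log2 difference of this shared probe set was 0.53 ± 0.24 (SE), with a 95% confidence interval of -0.03 to 1.09 (limma adjusted p = 0.204 in a fit with the shared probe sets added). The signal cannot be split between the annotated transcripts.

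The 4 INK4 genes did not pass the test, and their log2 differences lay between 0.04 and 0.57, with a median of 0.17. The largest was that of Cdkn2c, which encodes p18. Cdkn2c read 8.91, 9.62 and 8.79 in EVI1 arrays, against 8.60, 8.57 and 8.45 in EGFP arrays. The groups did not overlap, but EVI1 replicate 2 stood above the other 2 EVI1 arrays. The difference was 0.57 ± 0.21 (SE, 95% confidence interval 0.09 to 1.04), with an unadjusted p of 0.0248 and a limma adjusted p of 0.106. Without EVI1 replicate 2 it was 0.31 (limma adjusted p = 0.174).

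Cdkn2a and Cdkn2b are neighbours in the genome and are known as a silenced locus in normal progenitors, kept off by Polycomb proteins. Cdkn2a makes p16 and p19ARF from overlapping exons, and a single probe set stands for both products. Cdkn2a read 7.18, 7.20 and 7.21 in EVI1 arrays, against 7.01, 7.33 and 7.14 in EGFP arrays, and the groups overlapped. Its log2 difference was 0.04 ± 0.11 (SE, 95% confidence interval -0.22 to 0.30; limma adjusted p = 0.891). Both group means of Cdkn2a, 7.20 ± 0.02 in EVI1 and 7.16 ± 0.16 in EGFP arrays (SD, n = 3 each), were little above the level of dim genes.

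Cdkn2b encodes p15, known as a target of TGF-beta signalling. It read 7.53, 7.60 and 7.72 in EVI1 arrays, against 7.40, 7.60 and 7.27 in EGFP arrays. The groups overlapped, and the log2 difference was 0.19 ± 0.12 (SE, 95% confidence interval -0.09 to 0.47; limma adjusted p = 0.376). Cdkn2d encodes p19INK4D, the INK4 inhibitor whose level changes through the cell cycle. It read 8.16, 8.57 and 8.21 in EVI1 arrays, against 7.99, 8.59 and 7.89 in EGFP arrays. Replicate 2 was highest in both groups, which overlapped, and the log2 difference was 0.16 ± 0.20 (SE, 95% confidence interval -0.30 to 0.62; limma adjusted p = 0.723). The upper ends of the intervals lay under a 2-fold rise in intensity for Cdkn2a, Cdkn2b and Cdkn2d, but not for Cdkn2c. Cdkn2a and Cdkn2b read not far above the level of dim genes, where intensity can understate a change of transcript. For these genes the intervals therefore do not bound the change of transcript.

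**Figure D2:**
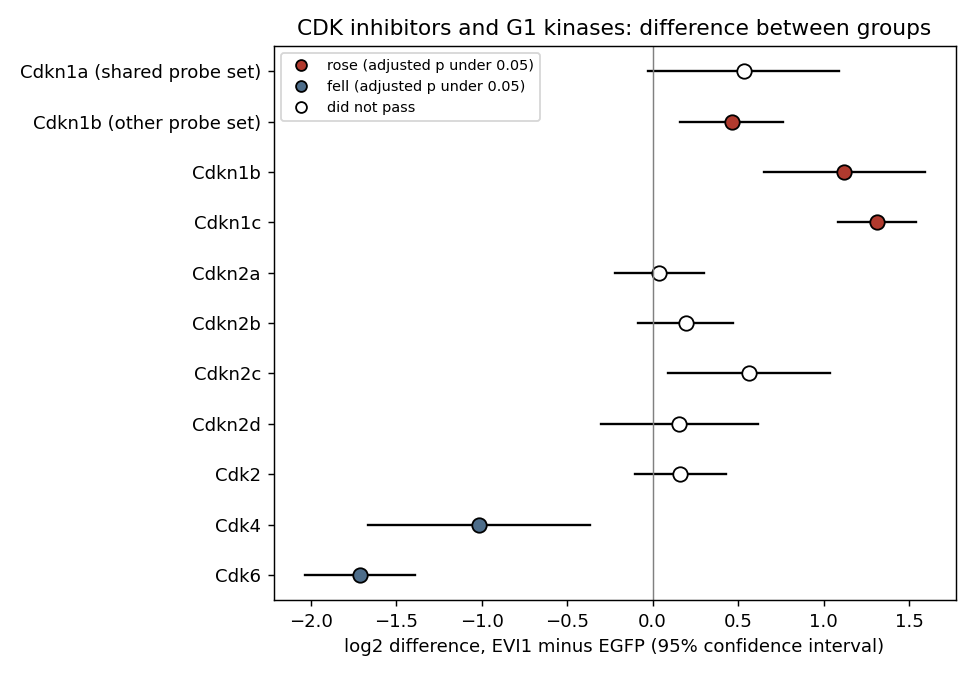
Log2 difference, EVI1 minus EGFP, of each probe set (x axis) with its 95% confidence interval from limma; red points rose, blue points fell and open points did not pass at an adjusted p of 0.05. Cdkn1c (1.31) and Cdk6 (-1.71) lie farthest from 0 on either side, and the INK4 genes and Cdk2 lie between 0.04 and 0.57.

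Cdk6, which with D-type cyclins opens G1, had the largest change of the 9 genes. Its probe set (10519324) read 10.04, 9.80 and 9.84 in EVI1 arrays, against 11.40, 11.86 and 11.56 in EGFP arrays. Every EVI1 value was more than 1 log2 unit below every EGFP value. Cdk6 fell 3.28-fold, with a log2 difference of -1.71 ± 0.14 (SE, n = 3 each; limma adjusted p = 0.000227), at rank 140 of 19937 genes by p. With any 1 array left out the difference stayed between -1.81 and -1.59.

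Cdk4, its close relative with the same cyclin partners, fell by 1.01 ± 0.28 on the log2 scale (SE; limma adjusted p = 0.0406), or 2.02-fold. It read 9.98, 10.62 and 10.53 in EVI1 arrays (probe set 10366814), against 10.88, 11.99 and 11.29 in EGFP arrays. The groups did not overlap, but the highest EVI1 and the lowest EGFP array differed by less than the spread within either group. The fits that left out an array had no replicate block. In them the fall did not pass without EVI1 replicate 1 (-0.81, limma adjusted p = 0.126), EVI1 replicate 2 (-1.14, 0.0644), EVI1 replicate 3 (-1.09, 0.101) or EGFP replicate 3 (-1.06, 0.0939). Between arrays of the same number Cdk4 differed by -0.91, -1.38 and -0.76, and with the replicate block it passed at a limma adjusted p of 0.00373. Without EGFP replicate 2, the array that stood somewhat apart, the difference was -0.71 (limma adjusted p = 0.0476), against -1.01 with it.

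Cdk2, the kinase of cyclins E and A, did not pass and pointed the other way. It read 9.63, 9.68 and 9.46 in EVI1 arrays, against 9.40, 9.56 and 9.32 in EGFP arrays, and the groups overlapped. The log2 difference was 0.16 ± 0.11 (SE), and its 95% confidence interval, -0.10 to 0.43, does not reach the falls of Cdk4 and Cdk6.

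**Figure D3:**
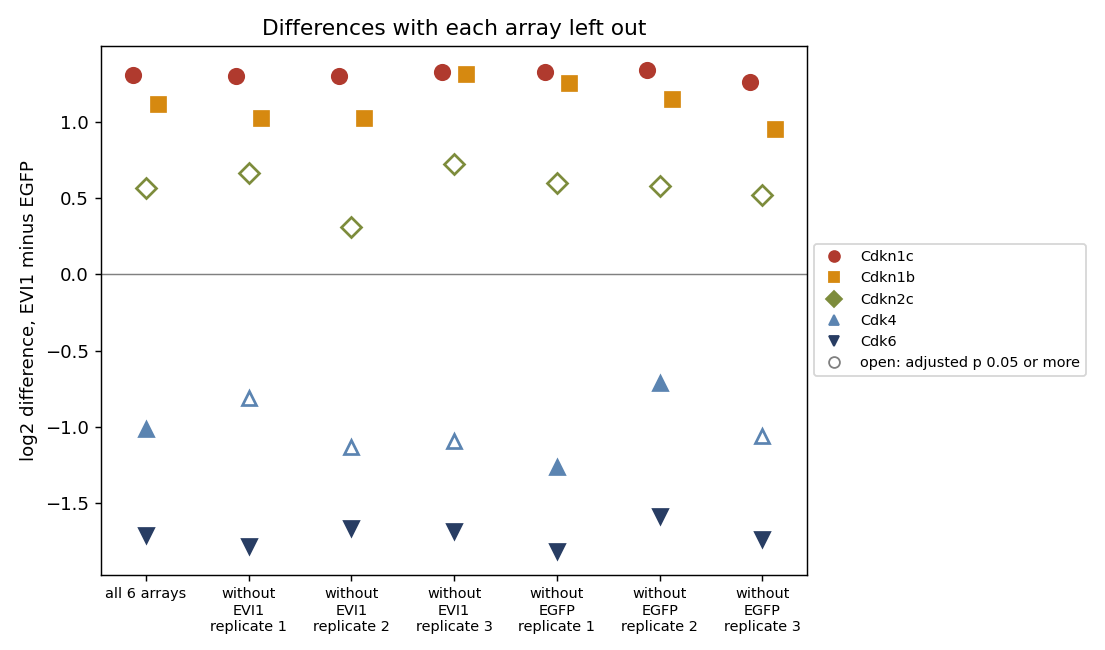
Log2 difference, EVI1 minus EGFP (y axis), of the 4 called genes and Cdkn2c with all 6 arrays and with each array left out (x axis); filled points passed at an adjusted p of 0.05 and open ones did not. Cdkn1c, Cdkn1b (tested probe set only) and Cdk6 passed in all 6 such fits, and Cdk4 lost its call in 4 of them. Cdkn2c passed in none and was lowest, at 0.31, without EVI1 replicate 2.

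The sequences just before the transcription start of Cdkn1b, which rose, and of Cdk4 and Cdk6, which fell, are shown to set the genes with opposite changes side by side. They are the 250 bases upstream of the start in RefSeq (build GRCm38.p6), on the strand of the gene, 5′ to 3′. Capitals mark the E-box CACGTG, bound by MYC with MAX and by related factors, and CCAAT, bound by NF-Y, each searched on both strands; neither overlaps the other in these windows.
Cdkn1b, chr6:134920151-134920400, plus strand: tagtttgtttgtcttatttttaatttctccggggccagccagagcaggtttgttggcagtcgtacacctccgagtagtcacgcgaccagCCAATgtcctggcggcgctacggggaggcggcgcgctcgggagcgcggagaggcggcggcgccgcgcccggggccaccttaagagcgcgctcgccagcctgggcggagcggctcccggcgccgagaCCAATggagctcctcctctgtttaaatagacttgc
Cdk4, chr10:127063285-127063534, plus strand: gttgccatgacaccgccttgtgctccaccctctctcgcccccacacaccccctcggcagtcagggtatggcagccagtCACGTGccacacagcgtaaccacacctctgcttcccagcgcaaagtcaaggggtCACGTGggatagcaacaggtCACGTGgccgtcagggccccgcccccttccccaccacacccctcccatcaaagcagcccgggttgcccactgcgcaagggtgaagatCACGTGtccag
Cdk6, chr5:3343643-3343892, plus strand: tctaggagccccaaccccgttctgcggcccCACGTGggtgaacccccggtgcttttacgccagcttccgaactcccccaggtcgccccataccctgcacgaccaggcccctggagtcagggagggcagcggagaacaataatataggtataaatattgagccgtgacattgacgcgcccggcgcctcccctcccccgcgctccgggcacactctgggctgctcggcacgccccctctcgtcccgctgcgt

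The Cdk4 window held 4 copies of CACGTG and the Cdk6 window 1, and the Cdkn1b window held none. At least 1 copy was present in 6.02% of the 32851 windows of that length in the RefSeq table, and at least 4 copies in 7 windows (0.0213%). Cdkn1b had 2 copies of CCAAT, as 10.1% of windows had at least 2, and Cdk2 and Cdkn2d had 1 each, where 33.9% had at least 1. The FOXO site GTAAACA (in 3.17% of windows) and the EVI1 sites GACAAGATA (0.107%) and GAAGATGAG (0.347%) were not found in the 12 windows of the 9 genes that matched the table; Cdkn1c did not match. The motifs were picked from general knowledge, and a match is a string of letters, not a measured site. Windows of alternative starts of one gene can share sequence.

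Among the factors that bind CACGTG is MYC, whose transcript Myc read 10.17, 9.10 and 9.78 in EVI1 arrays, against 11.68, 11.24 and 12.12 in EGFP arrays. Myc fell by 2.00 ± 0.30 on the log2 scale (SE, n = 3 each; limma adjusted p = 0.00269). It is known both to activate Cdk4 and to repress CIP/KIP and INK4 genes. Its part in the differences of these genes was not tested.

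The cyclins that pair with these kinases were mostly lower in the arrays labelled EVI1. Of 5 G1 cyclins 4 fell, where 9.18% of all genes fell, and 1, Ccnd3, did not pass. The median log2 difference over the 5 was -0.66. Cyclin E2 (Ccne2), a partner of CDK2, read 8.79, 8.85 and 8.48 in EVI1 arrays, against 10.36, 9.75 and 10.42 in EGFP arrays, and fell by 1.47 ± 0.19 on the log2 scale (SE; limma adjusted p = 0.00151). Cyclin E1 (Ccne1) fell by 1.23 ± 0.12 (limma adjusted p = 0.000425). So the E-type cyclins fell while the transcript of their kinase Cdk2 did not pass.

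Of the D-type cyclins, Ccnd2 differed by -0.58 ± 0.13 (limma adjusted p = 0.0174) and Ccnd1 by -0.66 ± 0.19 (limma adjusted p = 0.0482), and Ccnd3 by 0.30 ± 0.10 (limma adjusted p = 0.0888). The calls of Ccnd1 and Ccnd2 were fragile. Ccnd1 passed in 1 and Ccnd2 in 3 of the 6 fits that left out an array, with limma adjusted p-values of up to 0.152 and 0.0675, and Ccnd1 did not pass after a further quantile normalisation (0.0617). All 3 Ccnd3 values in EVI1 arrays, 8.77, 8.95 and 8.93, were above those in EGFP arrays, 8.52, 8.61 and 8.62.

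Transcripts for the destruction of CIP/KIP proteins were among those that fell. Of 10 genes of inhibitor turnover 3 fell, where 9.18% of all genes fell, and 7 did not pass. The median log2 difference over the 10 was -0.39. With the replicate block 5 fell, as Ddb1 (limma adjusted p = 0.0339) and Cops5 (0.0282) passed too. Skp2, which marks p27 for degradation, read 7.98, 7.84 and 7.80 in EVI1 arrays, against 8.92, 8.64 and 9.22 in EGFP arrays, and fell by 1.05 ± 0.15 on the log2 scale (SE; limma adjusted p = 0.00258). Its cofactor Cks1b fell by 1.19 ± 0.12, and Dtl, which directs p21 to degradation, fell by 1.79 ± 0.13. Rnf123, a ubiquitin ligase subunit for p27 in the cytoplasm, differed by 0.41 ± 0.13 and did not pass (limma adjusted p = 0.0623). Protein levels were not measured.

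Genes known to control CIP/KIP transcription went both ways. Of 10 measured 3 rose and 2 fell, where 9.06% of all genes rose and 9.18% fell. The other 5 were not called, and the median log2 difference over the 10 was 0.06. Hes1, a repressor of Cdkn1b and Cdkn1c in other tissues, rose by 0.87 ± 0.12, Foxo1, an activator of Cdkn1b, by 0.70 ± 0.13, and Klf6, an activator of Cdkn1a, by 0.90 ± 0.17. Myc was 1 of the 2 that fell; the other, Gfi1, a repressor of Cdkn1a, differed by -0.45 ± 0.12 and passed in 1 of the 6 fits that left out an array.

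Of 14 genes known to control the INK4 genes 2 rose and 3 fell, where 9.06% of all genes rose and 9.18% fell. The other 9 were not called. The median log2 difference over the 14 was -0.13. With the replicate block 1 rose and 4 fell: Tgfbr2 lost its call (limma adjusted p = 0.0521) and Tgfbr1 gained one (0.00957). The Polycomb subunits Ezh2 (-0.65 ± 0.10) and Suz12 (-0.73 ± 0.15) and the cytokine gene Tgfb1 (-1.08 ± 0.16) fell. The Polycomb reader Cbx7 rose by 0.65 ± 0.12. The receptor gene Tgfbr2 differed by 0.45 ± 0.13 and passed in 2 of the 6 fits that left out an array. These changes stood beside INK4 transcripts that did not pass.

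Among genes that act on the kinases or downstream of them, 2 of 5 for CDK activation and folding and 2 of 6 for pocket proteins and E2F passed, where 18.2% of all genes were called. Of the 5 genes of CDK activation and folding, the phosphatase gene Cdc25a, which activates CDK2, fell by 1.10 ± 0.12 on the log2 scale (SE; limma adjusted p = 0.000590), and Mnat1, a subunit of the CDK-activating kinase, differed by 0.45 ± 0.13 at a limma adjusted p of 0.0498. Of the 6 pocket protein and E2F genes, Rbl1 (p107) differed by -0.59 ± 0.15 and E2f3 by -0.54 ± 0.15. Each of these last 3 passed in 2 of the 6 fits that left out an array. Rb1 itself differed by -0.03 ± 0.12 and did not pass.

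Most other members of the kinase family, like most of all genes, did not pass the test. Among 14 other cyclin-dependent kinases 1 rose and 2 fell, where 9.06% of all genes rose and 9.18% fell. The other 11 did not pass, and the median log2 difference over the 14 was 0.05. With the replicate block Cdk5 (0.42 ± 0.13 without it) rose too (limma adjusted p = 0.0437). Cdk1, the mitotic kinase, averaged 8.94 ± 0.25 in EVI1 arrays and 10.22 ± 0.31 in EGFP arrays (SD, n = 3 each), and fell by 1.28 ± 0.18 (SE; limma adjusted p = 0.00234). Cdk8, of the Mediator complex, differed by -0.51 ± 0.12 and passed in 2 of the 6 fits that left out an array. Cdk14, a kinase of cyclin Y, went the other way and read 9.30, 8.91 and 9.16 in EVI1 arrays, against 7.42, 7.27 and 7.25 in EGFP arrays, a rise of 1.81 ± 0.13 (SE; limma adjusted p = 0.000131).

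**Figure D4:**
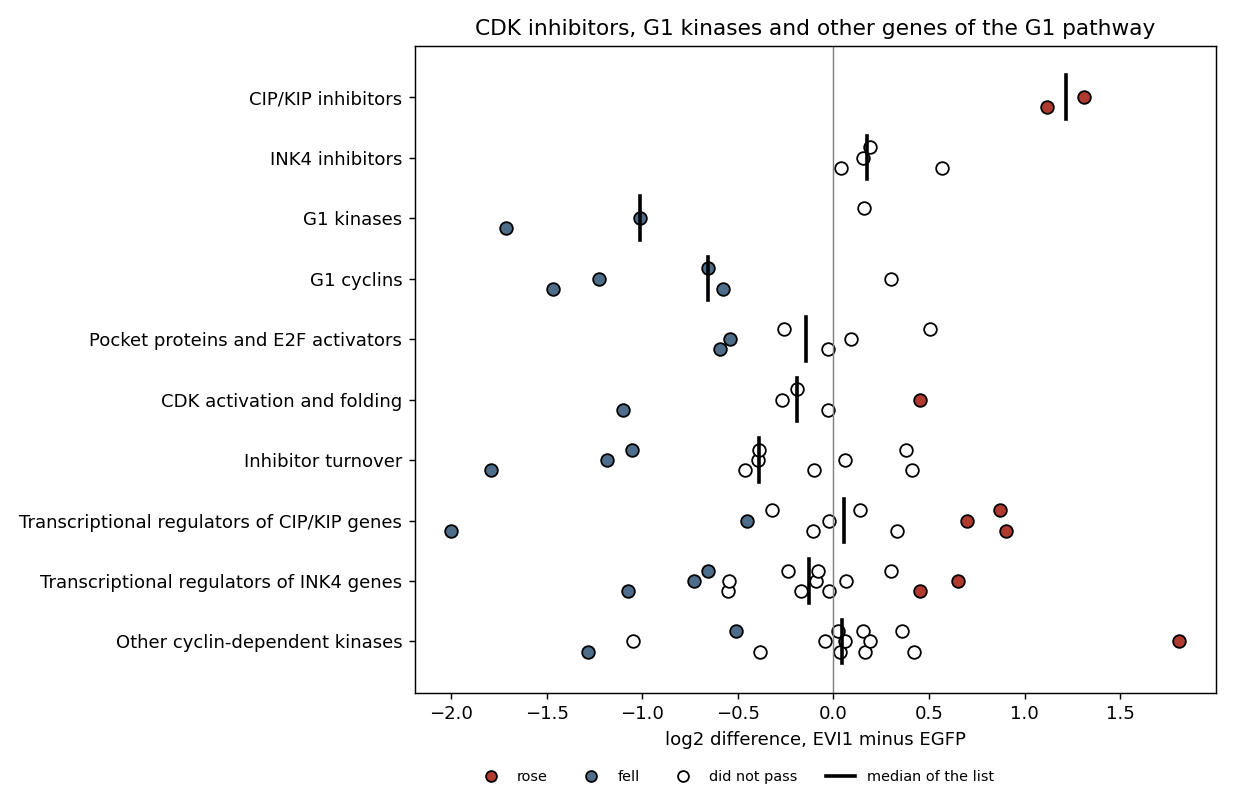
Log2 difference, EVI1 minus EGFP (x axis), of the measured genes of each group (rows); red points rose, blue points fell, open points did not pass at an adjusted p of 0.05, and the black bar is the median of the group. The tested CIP/KIP genes lie above 1, the INK4 genes between 0.04 and 0.57, and 4 of the 5 G1 cyclins and 2 of the 3 G1 kinases among the genes that fell.

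Over these 7 groups of other pathway genes, 64 were measured, of which 7 rose, 17 fell and 40 did not pass; 9.06% of all genes rose and 9.18% fell. Of the 24 that passed, 16 passed in all 6 fits that left out an array. These groups too were chosen with earlier results of these data known, so their shares are descriptive only.

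Markers of cell types moved with the groups as well. Marker counts here are of genes called at the same threshold, where 9.06% of all genes rose and 9.18% fell. The mean log2 level of 10 neutrophil markers was 8.84 to 9.55 in EVI1 arrays, against 10.8 to 11.3 in EGFP arrays. All 10 differences were negative, and 6 of the 10 were called lower. For 10 mast cell and basophil markers it was 8.28 to 8.46 in EVI1 arrays, against 9.61 to 10.2 in EGFP arrays. All 10 differences were negative, and 8 were called lower. For 10 progenitor markers it was 9.30 to 9.44 in EVI1 arrays, against 9.95 to 10.1 in EGFP arrays. Of these, 6 were called lower and 1 higher, and Cd34 fell by 2.45 ± 0.20 on the log2 scale (SE; limma adjusted p = 0.000201). These 3 mean levels were lower in every EVI1 array than in any EGFP array, as were Cdk4, Cdk6 and 16.5% of all genes.

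Of 7 erythroid markers 2 rose and 5 did not pass. Their mean level was 7.97 to 8.22 in EVI1 arrays, against 7.59 to 7.75 in EGFP arrays, and their log2 differences ran between -0.19 and 1.45. With the replicate block 3 rose. Macrophage markers overlapped, at 8.66 to 8.95 in EVI1 arrays against 8.55 to 8.94 in EGFP arrays, with 3 of 10 called higher and 2 lower. Megakaryocyte markers lay at 9.23 to 9.30 in EVI1 arrays, against 9.02 to 9.27 in EGFP arrays, with 3 of 7 called higher and 2 lower. Lymphoid markers lay at 6.63 to 6.77 in EVI1 arrays, against 6.55 to 6.77 in EGFP arrays, with 1 of 9 called higher and 1 lower. The part of these shifts in the differences of the CDK inhibitors and kinases was not tested.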

How the data were processed

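The authors deposited log2 intensities, 1 per probe set and array, for 3 EVI1 and 3 EGFP Affymetrix-type arrays, made by RMA per the submitters' processing notes; no source used here gives its version. RMA brings arrays close to a common distribution, so a change of total RNA per cell would not show. The number of arrays limits the precision. Array medians were 7.24 to 7.31. Of 34760 probe sets 21640 carried 1 gene symbol in the probe annotation, 1321 several and 11799 none here. Each gene was represented by its probe set of highest mean over the 6 arrays, with no filter on dim genes and no rescaling.

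EVI1 was compared with EGFP by limma 3.58.1 in R 4.3.3 (lmFit, eBayes, two-sided), with Benjamini-Hochberg adjustment over 19937 genes and checked on simulated data. Differences are EVI1 minus EGFP, SE and intervals come from that fit, and SD is over arrays. The genes and lists were chosen with earlier results of these data known. Named genes were all 10 set members, Mecom, up to 4 genes of smallest p per pathway list, genes making up a named count, and the 5 most like the called gene of smallest p; Rb1, Cd34 and the genes whose call differed with the replicate block were chosen after their values were seen. List genes with no probe set of their own were not analysed here. The shared probe set was tested in a fit added after the annotation was seen. Same-numbered arrays deviated together from their group means (r across genes 0.491, 0.269 and 0.197 for replicates 1, 2 and 3, against -0.346 to 0.0781 for other numbers), so the numbers were taken to pair the arrays, and a fit with the replicate number as a block was run. Deviations from a group mean cancel over its arrays, so the other numbers must tend to the negative once the same numbers are positive. The pairing was therefore assumed, not shown. Other alternatives were the choice of probe set, filters on dim genes, a further quantile normalisation, trend and robust estimation, array weights and leaving out each array.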

Additional observations from a re-analysis of the deposited data

How the results depend on the processing

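With 3 arrays a group, calls near the threshold are fragile. Cdkn1b, Cdkn1c and Cdk6 kept direction and call in every alternative run, with log2 differences of 0.46 to 1.31, 1.26 to 1.34 and -1.81 to -1.59. The lowest Cdkn1b difference was that of its other probe set, which passed narrowly (limma adjusted p = 0.0456). That probe set was not run on its own with the replicate block or with an array left out, so its call was not checked in this way. Cdk4 kept its direction in all 15 (-1.27 to -0.71) and lost its call in 4, those without EVI1 replicate 1, 2 or 3 or EGFP replicate 3. Hence 1 to 2 of the 9 genes fell with an array left out. The cause was not tested, beyond the fewer arrays. Cdkn2b, Cdkn2c, Cdkn2d and Cdk2 did not pass in any of 15 alternatives, nor Cdkn2a in any of 14, in 1 of which its sign turned (-0.04); the lowest adjusted p of Cdkn2c was 0.0561, with the replicate block. A replicate block gave 2172 genes up and 2189 down, changed no call among the 9 genes, and gave 7 up and 20 down in the pathway lists, where Tgfbr2 lost its call and Cdk5, Tgfbr1, Ddb1 and Cops5 gained one. Leaving out an array gave 1179 to 2037 genes up and 1110 to 2061 down, lowest without EVI1 replicate 3. For the pathway lists it gave 5 to 8 up and 12 to 18 down, and a quantile normalisation, chosen after seeing the data, 9 and 15. Mecom, with both group means under the level of dim genes, differed by -0.60 with all arrays and -0.87 to -0.30 with an array left out; it passed without EGFP replicate 1, which is not read as a change.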
